A study of Mus musculus with 4 samples.

Results

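The transcripts followed were those of 10 listed genes of the ATF4 and C/EBP branch of the amino acid stress response, out of 53465 genes in the count table. They were the transcription factors Atf4, Atf5, Cebpb and Cebpg, the metabolic enzymes Gpt2 and Shmt2, the signalling protein Ddit4, the lipoprotein receptor Vldlr, and Slc3a2 and Slc7a5, the heavy and light chain of 1 amino acid transporter. They were selected on the log2 fold changes of these same libraries and on their place in the pathway, so their values are given as a description and carry no test. The list was described as genes that were lower with 1-nitropyrene, and the counts bore this out for only some of them: 8 of the 10 passed the filter on low counts, 7 of these 8 had both treated libraries below both controls (29.2% of all genes tested had), Slc7a5 did not, and Cebpg and Slc3a2 had 1 and 5 counts in all 4 libraries together.

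The libraries came from cells labelled MLE-12, a line of immortalized lung epithelium of the mouse, named in the labels as type 2 alveolar cells and derived from mice that carried a viral large T antigen under a surfactant protein promoter. Cells were kept for 12 h with 5 µM 1-nitropyrene, a nitrated polycyclic hydrocarbon of diesel exhaust (n = 2 libraries, replicates 2 and 3), or without it as controls (n = 2 libraries, replicates 1 and 2). Sequencing was of polyadenylated RNA, prepared with a stranded kit. The study asked how 1-nitropyrene influences translation of Fbxw7 mRNA, and the counts measured RNA levels only.

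ATF4 is a basic leucine zipper transcription factor whose own mRNA is translated preferentially when initiation factor eIF2 is phosphorylated by kinases that sense amino acid shortage, unfolded protein, heme shortage or double-stranded RNA. It binds composite sites together with C/EBP proteins, and its targets raise amino acid synthesis, uptake and tRNA charging. Because much of its control lies in translation and in protein turnover, the Atf4 mRNA level is not a measure of ATF4 protein. The C/EBP proteins share the leucine zipper fold, pair with ATF4 and with each other, and take part in differentiation and inflammation in the lung.

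The libraries held 8797502 and 8601825 counts with 1-nitropyrene and 10773733 and 6908055 counts in controls. A level of 3 counts, taken as the floor for a count of 0, corresponded to 0.341 and 0.349 CPM (counts scaled to library size) in treated libraries and 0.279 and 0.434 CPM in controls. Ribosomal RNA loci took between 44.3% and 46.1% of the counts of each library, and 55.2% of the 21942 protein-coding genes had no count in any library. All 10 epithelial markers examined, among them Cdh1, Epcam and Krt8, had 0 counts in every library, as had 7 of 11 alveolar type 2 markers, including Sftpb and Nkx2-1. Of the other alveolar type 2 markers, Abca3 had 83 and 69 counts with 1-nitropyrene and 109 and 56 in controls. Etv5 had 48 and 54 with 1-nitropyrene and 46 and 37 in controls. Sftpc had 1 count and Lamp3 had 2, in control replicate 1 only. The labelled cell type could thus not be recognised from most of its markers. Mesenchymal markers summed to 805 and 795 CPM with 1-nitropyrene, against 541 and 527 CPM in controls, nearly all of it from Vim and Fn1. Fn1 had 3677 and 3387 counts with 1-nitropyrene and 2056 and 1252 in controls, while the fibroblast and smooth muscle markers of the list had few counts and mostly fewer with 1-nitropyrene. Col1a2 had 0 and 1 counts with 1-nitropyrene and 17 and 7 in controls, and Tagln had 1 and 0 with 1-nitropyrene and 10 and 7 in controls. Of the 10 mesenchymal markers 1 was at 0 in every library, and their part in the values below was not tested. Immune markers (3 of 6 at 0 in every library) and endothelial markers (1 of 4) summed to no more than 0.290 CPM in a library. Separate cultures are not stated in the labels, and p-values measure only the spread between these libraries, which may be technical. Fewer cells of a type and less RNA per cell cannot be told apart in such bulk RNA.

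The sequences upstream of the genes with the clearest differences, and of Atf4, are shown because ATF4 and C/EBP proteins act at short sites near the starts of their targets. They are from RefSeq on GRCm38.p6 and run 5′ to 3′ on the strand of the gene, up to the base before its start, or for Ddit4 up to the first annotated exon base. Capitals mark a match to the C/EBP pattern TTGCNNAA on either strand, which of these 5 only the Vldlr sequence holds.
Ddit4 (chr10:59951835-59952020, minus strand): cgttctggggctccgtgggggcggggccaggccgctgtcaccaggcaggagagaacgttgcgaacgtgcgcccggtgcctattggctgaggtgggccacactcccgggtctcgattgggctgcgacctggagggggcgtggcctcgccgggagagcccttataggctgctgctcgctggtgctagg
Gpt2 (chr8:85492326-85492575, plus strand): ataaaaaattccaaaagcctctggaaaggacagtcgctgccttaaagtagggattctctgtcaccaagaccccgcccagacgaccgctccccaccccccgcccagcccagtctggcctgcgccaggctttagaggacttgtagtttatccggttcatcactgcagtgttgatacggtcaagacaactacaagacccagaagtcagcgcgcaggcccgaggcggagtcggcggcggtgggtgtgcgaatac
Vldlr (chr19:27216234-27216483, plus strand): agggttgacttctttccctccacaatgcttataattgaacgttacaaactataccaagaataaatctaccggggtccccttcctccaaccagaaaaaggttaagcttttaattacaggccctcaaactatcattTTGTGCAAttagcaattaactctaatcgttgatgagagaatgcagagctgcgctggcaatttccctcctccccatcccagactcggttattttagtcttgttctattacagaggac
Cebpb (chr2:167688665-167688914, plus strand): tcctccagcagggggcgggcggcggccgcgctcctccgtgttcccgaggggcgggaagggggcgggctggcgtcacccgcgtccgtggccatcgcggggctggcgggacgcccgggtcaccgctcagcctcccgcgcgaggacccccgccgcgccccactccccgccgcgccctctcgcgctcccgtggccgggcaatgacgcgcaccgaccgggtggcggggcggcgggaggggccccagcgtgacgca
Atf4 (chr15:80254934-80255183, plus strand): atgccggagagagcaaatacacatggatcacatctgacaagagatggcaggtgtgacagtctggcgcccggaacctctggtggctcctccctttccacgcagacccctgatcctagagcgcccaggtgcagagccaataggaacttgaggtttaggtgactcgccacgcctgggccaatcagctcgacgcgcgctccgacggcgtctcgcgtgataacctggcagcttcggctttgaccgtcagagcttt

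In the 250 bases before each RefSeq start, 3 patterns were searched on both strands: TGATGNAA, the core of the composite ATF4 and C/EBP site, TGACGTCA, the cyclic AMP response element bound by ATF and CREB proteins, and TTGCNNAA. No run of bases can match more than 1 of the 3. Windows were at hand for 9 of the 10 genes (not Slc7a5), 11 windows in all, since Atf5 and Vldlr have a second start. TGATGNAA was in 1 of the 11, at the second start of Vldlr, and in 3.45% of all 32851 windows. It lies 200 bases before that start and within exon sequence annotated for the first start, on the minus strand, with the match in capitals.
Vldlr second start (chr19:27216809-27216838, plus strand): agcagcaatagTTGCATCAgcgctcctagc
TTGCNNAA was likewise in 1 of the 11, the window at the first start of Vldlr printed above, 116 bases before the start, and in 9.56% of all windows. TGACGTCA was in 0 of the 11 and in 1.55% of all windows. A match is a description of the letters, and sites outside these windows or with other letters were not searched.

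The widest differences in the list were in a signalling protein and an enzyme, Ddit4 and Gpt2, the transcription factors differed less, and Slc7a5, Slc3a2 and Cebpg had too few counts to show any. Atf4 (chr15:80255184-80257541 on GRCm38, plus strand, 1 block when the exons of all its annotated transcripts are merged) differed little. After TMM scaling, which corrects for differences in library composition and applies to all CPM values below, it had 125 and 137 CPM with 1-nitropyrene and 144 and 146 CPM in controls, a log2 fold change of -0.15 (SE 0.05) or a ratio of 0.899. Both treated libraries were below both controls, and replicate 3 came closest, at a ratio of 0.947 to control replicate 1. Atf5 (chr7:44812256-44816658, minus strand), a related factor whose translation is controlled in the same way as that of Atf4, had 35.4 and 34.1 CPM with 1-nitropyrene and 36.9 and 39.5 CPM in controls. Its log2 fold change was -0.13 (SE 0.10), with the groups apart by less than the distance between the 2 controls, and the opposite-strand gene Il4i1, which shares 82 bp with it, had 0 counts. Both lay in the middle of the fold changes of all tested genes, with 30.9% of genes at or below the value of Atf4 and 33.7% at or below that of Atf5.

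Cebpb (chr2:167688915-167690418, plus strand, 1 exon), a C/EBP transcription factor induced in stress and inflammation, had 215 and 216 CPM in treated libraries, against 298 and 274 CPM in controls. The treated libraries were nearly equal and the controls differed by more from each other, and the log2 fold change was -0.42 (SE 0.04). Of the exon sequence of Cebpb, 312 of 1504 bp is shared with Tmem189, an opposite-strand gene. Whether the authors counted by strand is not given in the sources used here. Counts of Tmem189 were 49.7% and 49.7% of those of Cebpb with 1-nitropyrene, and 50.4% and 49.1% of them in controls. Tmem189 moved with Cebpb, at a log2 fold change of -0.42 (SE 0.06), and how far reads of 1 gene were counted for the other was not tested.

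Ddit4 (chr10:59949669-59951834, minus strand), which restrains the growth kinase mTORC1 and responds to stress and low oxygen, showed the steepest difference of the listed genes above the filter. It had 11.7 and 13.4 CPM in the treated libraries, against 31.0 and 32.4 CPM in the control libraries. The treated libraries lay far below both controls, and each of the 4 ratios of a treated to a control library was between 0.362 and 0.432. The log2 fold change was -1.33 (SE 0.14, n = 2 per group), which ranked 67 from the lowest among the 7738 genes tested. Gpt2 (chr8:85492576-85527560, plus strand), the mitochondrial alanine aminotransferase that makes alanine from pyruvate and glutamate, came next after Ddit4. It had 34.0 and 31.6 CPM with 1-nitropyrene and 62.5 and 69.6 CPM in controls, a log2 fold change of -0.996 (SE 0.09) or a ratio of 0.501. Its 4 treated-to-control ratios lay between 0.454 and 0.544, with no overlap between the groups. Vldlr (chr19:27216484-27254231, plus strand) encodes the very low density lipoprotein receptor, which takes up triglyceride-rich particles and is induced through ATF4 in stressed liver cells of mice. It had 99.97 and 112 CPM with 1-nitropyrene and 146 and 156 CPM in controls, with the groups apart and a log2 fold change of -0.50 (SE 0.06).

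**Figure D1:**
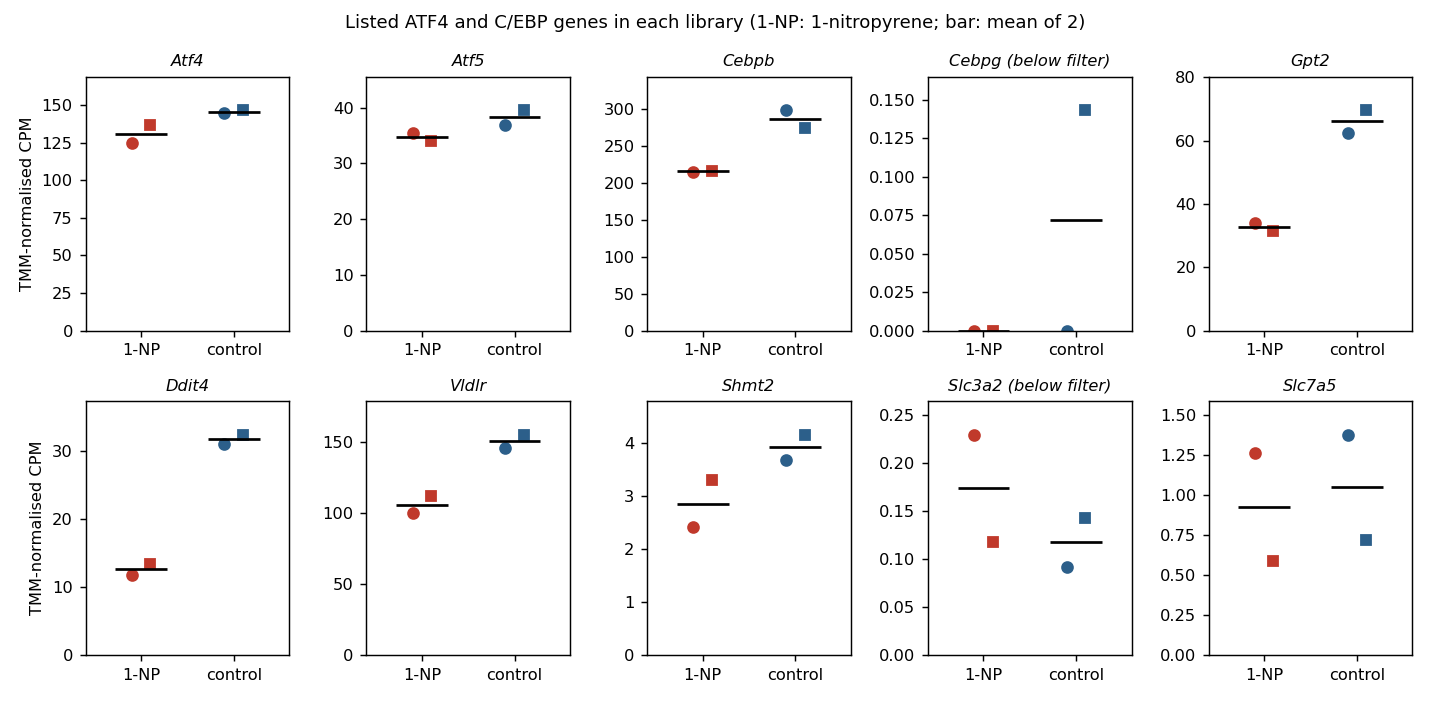
TMM-normalised CPM of the 10 listed genes in each library, with 1-nitropyrene (1-NP, red; circle replicate 2, square replicate 3) left of control (blue; circle replicate 1, square replicate 2), each axis starting at 0 and each bar the mean of 2 libraries. Gpt2 and Ddit4 show the widest gaps (Ddit4 at 11.7 and 13.4 CPM against 31.0 and 32.4 CPM), Atf4 and Atf5 narrow ones, and Slc7a5, Slc3a2 and Cebpg overlap between groups.

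The listed genes with few counts gave no clear difference. Shmt2 (chr10:127517123-127522444, minus strand), the mitochondrial enzyme that turns serine into glycine and a one-carbon unit, had 21 and 28 counts with 1-nitropyrene and 40 and 29 counts in controls. That was 2.41 and 3.29 CPM in treated libraries, against 3.68 and 4.15 CPM in controls, and a log2 fold change of -0.44 (SE 0.34). The groups did not overlap, but the 95% counting interval of the ratio, 0.490 to 1.06, reached past 1. The opposite-strand gene Ndufa4l2, which shares 32 bp with Shmt2, had 0 counts. Slc7a5 (chr8:121881150-121907694, minus strand), the light chain of the transporter that brings leucine and other large neutral amino acids into the cell, had 11 and 5 counts with 1-nitropyrene and 15 and 5 counts in controls. In both groups the 2 libraries differed by more than the groups did, and the log2 fold change was -0.26 (SE 0.60). Its heavy chain Slc3a2, which carries the pair to the membrane, had 2 and 1 counts with 1-nitropyrene and 1 and 1 in controls. Cebpg, which pairs with ATF4, had 0 and 0 counts with 1-nitropyrene and 0 and 1 in controls, and neither gene reached 3 counts in a library. The interval covers counting error alone, because PCR copies of a molecule cannot be recognised in these counts.

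The median log2 fold change of the 8 was -0.43, set beside -0.00354 for all tested genes. Since the list was made with these values known, nothing is read from its median or from its counts.

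**Figure D2:**
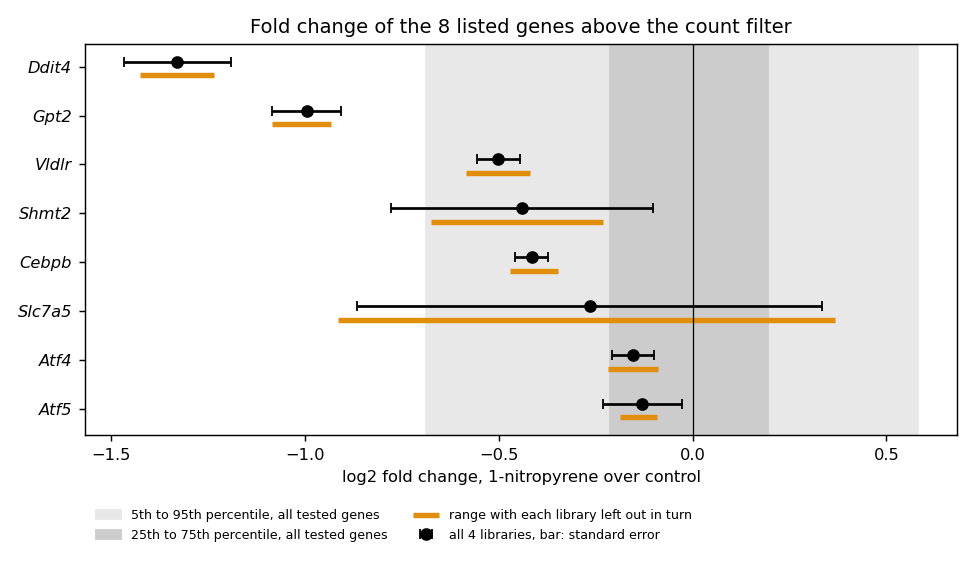
Log2 fold change of 1-nitropyrene over control for the 8 listed genes above the count filter (points, with bars for the standard error), each above a bar in orange for the range obtained with each of the 4 libraries left out in turn. Grey bands hold the middle of all 7738 tested genes, from -0.21 to 0.19 (25th to 75th percentile) and from -0.69 to 0.58 (5th to 95th percentile), so that Ddit4 and Gpt2 lie outside the wider band, Atf4 and Atf5 lie inside the narrower one, and the range of Slc7a5 crosses 0.

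Levels per length of exon compare genes only if the reads of each were recovered alike, which was not tested. Exon length was that of the merged exons of all annotated transcripts, which can exceed the length of the expressed mRNA. For Atf4 it was 2358 bp, the whole span of the gene. The order of genes by this level therefore also depends on the annotation. Cebpb, with 312 of its 1504 bp shared with Tmem189, had the highest level of the 10. It was at 143 ± 0.491 CPM per kilobase with 1-nitropyrene and 190.1 ± 11.5 in controls (mean ± SD, n = 2 each). Atf4 followed, at 55.4 ± 3.56 CPM per kilobase with 1-nitropyrene and 61.7 ± 0.639 in controls, and Atf5 at 17.4 ± 0.476 with 1-nitropyrene and 19.2 ± 0.916 in controls. The order below these differed between the groups. In treated libraries Vldlr (10.5 ± 0.854 CPM per kilobase) came before Ddit4 (7.15 ± 0.671) and Gpt2 (5.81 ± 0.304), each apart from its neighbour in every library. In controls Ddit4 (18.04 ± 0.562) came before Vldlr (15.0 ± 0.687) and Gpt2 (11.7 ± 0.891), and Ddit4 differed from Atf5 by little more than the spread, at 18.4 in its higher library against 18.5 in the lower library of Atf5. Shmt2 had 0.917 ± 0.199 CPM per kilobase with 1-nitropyrene and 1.26 ± 0.109 in controls, and Slc7a5, the lowest of the 8 above the filter in every library, had 0.250 ± 0.129 with 1-nitropyrene and 0.282 ± 0.126 in controls.

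The rest of the pathway was examined in 11 lists of genes, with the 10 genes above left out and every gene tested in 1 fit over all 7738 genes (edgeR's quasi-likelihood test, adjusted p under 0.05). Of the 169 other genes on these lists 47 had 0 counts in all libraries, 30 had counts below the filter and 92 were tested. Of those tested, 15 fell and 8 rose, 16.3% and 8.70%, against 11.2% and 13.2% of all tested genes. Their median log2 fold change was -0.07. DESeq2 called fewer of these 92, 9 lower and 5 higher, beside 319 lower and 517 higher over all 7738 genes. It gave no adjusted p to some of the 92, Shmt1, Aars and Slc43a2 among them, so those genes could not be called there. With limma-voom 14 of the 92 were lower and 8 higher, beside 734 lower and 928 higher over all 7738 genes. List counts at an unadjusted p under 0.05 are given below for some lists only. The share of all genes at that threshold is not given beside them, so nothing is read from these counts.

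Among the enzymes of amino acid synthesis, 2 of 8 fell and 1 rose (median log2 fold change -0.13). Psat1 and Phgdh, steps of serine synthesis and ATF4 targets, fell. Psat1 had 74.8 and 76.0 CPM with 1-nitropyrene and 97.6 and 86.1 CPM in controls (log2 fold change -0.30, SE 0.07, edgeR adjusted p = 0.000117), and its call ended without control replicate 1 (adjusted p = 0.17). Phgdh had 32.1 and 29.9 CPM with 1-nitropyrene and 40.9 and 38.8 CPM in controls (log2 fold change -0.37, SE 0.10, edgeR adjusted p = 0.00254), a call that ended without control replicate 1 (adjusted p = 0.107) and in DESeq2 (adjusted p = 0.0879). Both treated libraries were below both controls for each. Glud1, glutamate dehydrogenase, was not called (log2 fold change 0.10, SE 0.05). The partner enzymes Gpt, Pycr1, Cth and Cbs had 0 counts in all libraries, and asparagine synthetase (Asns), a classic ATF4 target, had 3 counts in all.

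Of the other enzymes of serine, glycine and folate metabolism, 1 of 8 fell and 1 rose (median 0.07). Mthfd2, the mitochondrial folate enzyme that acts after Shmt2, fell to 54.7 and 56.4 CPM with 1-nitropyrene, against 64.5 and 72.3 CPM in controls (log2 fold change -0.29, SE 0.08, edgeR adjusted p = 0.00192). This call ended without control replicate 2 (adjusted p = 0.11) and in DESeq2 (adjusted p = 0.0688). Thymidylate synthase (Tyms) rose by 0.17 (SE 0.06, edgeR adjusted p = 0.0184), a call lost without control replicate 1 (adjusted p = 0.412) or 1-nitropyrene replicate 3 (adjusted p = 0.112) and in DESeq2 (adjusted p = 0.22), with no scaling factors and with no filter on low counts. The cytosolic counterpart Shmt1, which shares 184 bp with an opposite-strand gene, had 26 and 38 counts with 1-nitropyrene and 25 and 18 in controls and was not called. Nor was Mthfd1l, a mitochondrial folate enzyme (log2 fold change 0.33, SE 0.22).

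Among the other amino acid transporters, 2 of 8 fell and 0 rose (median -0.29), with 4 lower and 1 higher at an unadjusted p under 0.05, DESeq2 calling 1 and 0 and limma-voom 2 and 0. The glycine transporter Slc6a9 had 6.44 and 9.86 CPM with 1-nitropyrene and 12.7 and 16.6 CPM in controls (log2 fold change -0.81, SE 0.19, edgeR adjusted p = 0.000177). Its call ended without 1-nitropyrene replicate 2 (adjusted p = 0.0764), and 1429 bp of its exon sequence is shared with an opposite-strand gene. Slc43a2, a carrier of neutral amino acids, had 7 and 11 counts with 1-nitropyrene and 34 and 21 in controls (log2 fold change -1.55, SE 0.46, edgeR adjusted p = 0.00476). That call was lost without control replicate 1 (adjusted p = 0.0792) or 1-nitropyrene replicate 2 (adjusted p = 0.091), DESeq2 gave it no adjusted p, it fell below a filter of 10 CPM on the mean, and 922 bp are shared with an opposite-strand gene. Slc7a6, another light chain that pairs with Slc3a2, and Slc38a2, a glutamine and alanine carrier, were not called, at log2 fold changes of -0.35 (SE 0.16) and 0.16 (SE 0.07). Slc7a2, Slc7a3, Slc7a8 and Slc38a3 had 0 counts in all libraries.

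Cytosolic aminoacyl-tRNA synthetases, which charge tRNAs and are induced through ATF4, had 4 of 10 lower and 0 higher (median -0.15). At an unadjusted p under 0.05 they numbered 6 and 1, in DESeq2 2 and 0 and in limma-voom 3 and 0. Sars, for serine, fell to 37.7 and 36.1 CPM with 1-nitropyrene, against 48.9 and 48.3 CPM in controls (log2 fold change -0.40, SE 0.09, edgeR adjusted p = 0.000225), and was called in all 14 other settings tried. Cars, for cysteine, had 49.6 and 42.4 CPM with 1-nitropyrene and 58.0 and 60.0 CPM in controls (log2 fold change -0.35, SE 0.08, edgeR adjusted p = 0.000315). Its call ended without 1-nitropyrene replicate 3 (adjusted p = 0.0619), and 211 bp are shared with an opposite-strand gene. Gars, for glycine, and Tars, for threonine, fell by 0.11 (SE 0.04) and 0.26 (SE 0.10). Gars lost its call without any 1 of control replicate 1 (adjusted p = 0.418), 1-nitropyrene replicate 2 (0.0846) and 1-nitropyrene replicate 3 (0.0701), and Tars without any 1 of the 4 libraries (adjusted p between 0.0535 and 0.408). Neither was called by DESeq2 (adjusted p = 0.18 and 0.286) or with no filter on low counts, and Tars was not called by limma-voom or the older quasi-likelihood method.

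**Figure D3:**
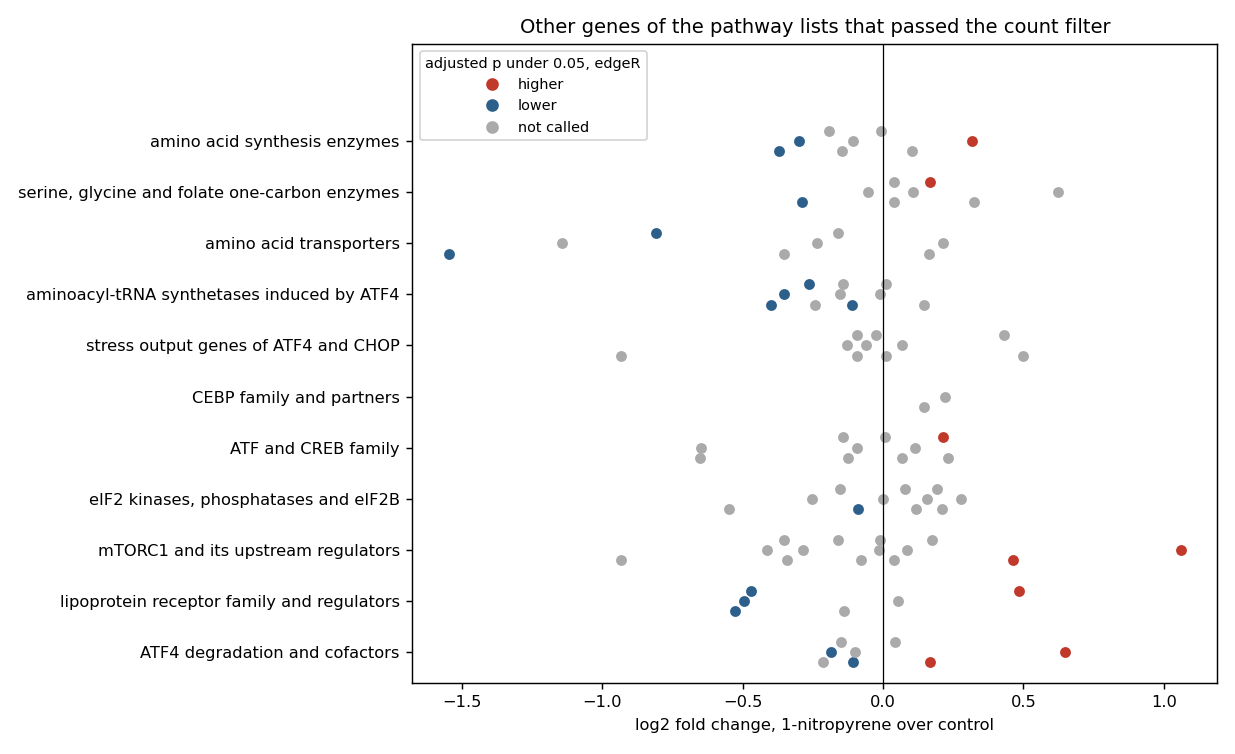
Log2 fold change of 1-nitropyrene over control for each other gene of the 11 lists that passed the count filter, 1 point a gene (a gene on more than 1 list appears on each), coloured by its call in edgeR at an adjusted p under 0.05, with points spread vertically within a list for legibility only. The 4 synthetases called are all lower, the other stress output genes hold no call (Ddit4, Vldlr and Cebpb are left out), and the lipoprotein receptor family holds 3 lower and 1 higher.

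The other stress output genes downstream of ATF4 and its target CHOP held no call, 0 lower and 0 higher of 10 tested in edgeR. In DESeq2 and in limma-voom they were 0 and 0, and at an unadjusted p under 0.05 they were 0 lower and 1 higher. Left out of these counts were 5 listed genes that also belong here, Ddit4, Vldlr, Cebpb, Atf5 and Cebpg. The first 4 were lower, at log2 fold changes of -1.33, -0.50, -0.42 and -0.13, and Cebpg had 1 count in all. The genes that usually mark this response most sharply had no counts: Ddit3, which encodes CHOP, and Trib3, Atf3 and Ppp1r15a were at 0 in all 4 libraries. The floor of 3 counts stood at 0.434 CPM in the shallowest library. Map1lc3b of the same list was also at 0, as were 55.2% of all protein-coding genes. Why so many genes had no count was not tested, so 0 counts do not show here that a gene was silent. Chac1, a glutathione-degrading enzyme, had 16 and 10 counts with 1-nitropyrene and 9 and 10 in controls. Sqstm1, an autophagy receptor, had 13.9 and 15.0 CPM with 1-nitropyrene and 12.0 and 8.74 CPM in controls and was not called (log2 fold change 0.43, SE 0.17, edgeR adjusted p = 0.0542; 580 bp are shared with an opposite-strand gene). Sesn2, an inhibitor of mTORC1 like Ddit4, had 9 and 4 counts with 1-nitropyrene and 17 and 9 in controls (log2 fold change -0.93, SE 0.59), a difference not detectable at this depth.

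The relatives of Atf4 and Cebpb in the ATF, CREB and C/EBP families held 1 call, a higher one. Of the other C/EBP genes, 0 of 2 tested were lower and 0 higher in edgeR, DESeq2 and limma-voom (0 and 1 at an unadjusted p under 0.05). Cebpa, which drives differentiation in lung and liver, had 111 and 111 CPM with 1-nitropyrene and 97.2 and 105 CPM in controls, with 51 bp shared with an opposite-strand gene (log2 fold change 0.14, SE 0.06, edgeR adjusted p = 0.0675). Cebpd, which shares 562 bp with an opposite-strand gene, had 14 and 13 counts with 1-nitropyrene and 13 and 11 in controls, and Cebpe had 0. Of the other ATF and CREB genes, 0 of 10 fell and 1 rose (1 and 2 at an unadjusted p under 0.05, 0 and 1 in both DESeq2 and limma-voom). Creb3l1, a membrane-bound factor of the endoplasmic reticulum, rose to 228 and 231 CPM with 1-nitropyrene, against 195 and 201 CPM in controls (log2 fold change 0.21, SE 0.05, edgeR adjusted p = 3.69e-05), and was called in all 14 other settings tried. Atf2, Crem and Creb1 were not called, at log2 fold changes of -0.13 (SE 0.05), 0.23 (SE 0.10) and -0.14 (SE 0.08), and 472 bp of Crem are shared with an opposite-strand gene. The differences between Cebpb or Atf4 and these relatives were not tested.

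**Figure D4:**
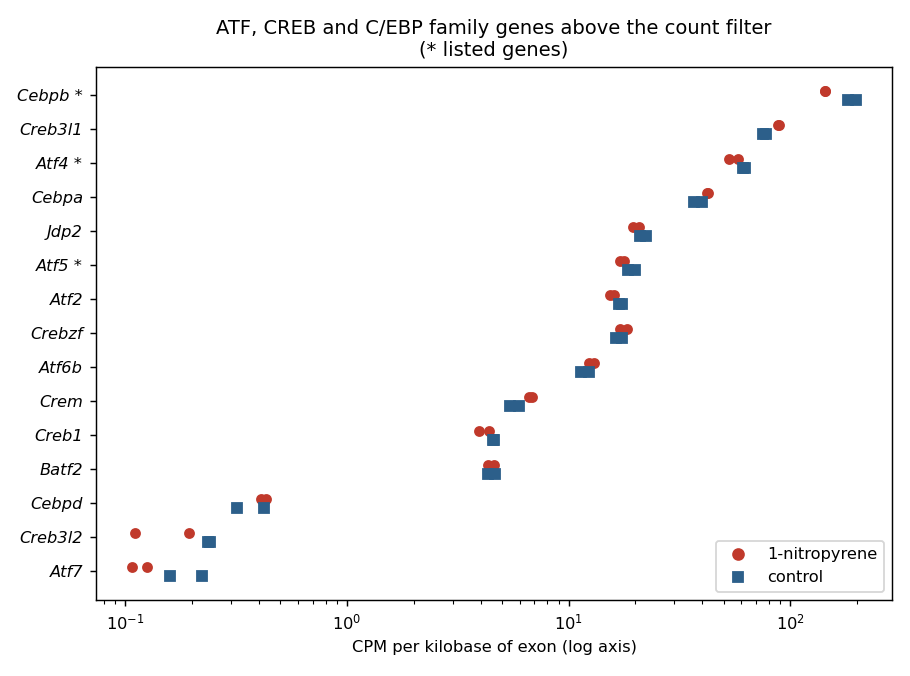
Level per kilobase of exon (CPM per kilobase, log axis) of the 15 ATF, CREB and C/EBP family genes above the count filter, with 1-nitropyrene libraries as red circles above control libraries as blue squares. Cebpb is highest in both groups (143 and 144 with 1-nitropyrene, 198 and 182 in controls), Atf4, marked by an asterisk like the other listed genes, stands below Creb3l1 and above Cebpa in every library, and Atf5 lies among Jdp2, Atf2 and Crebzf.

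Upstream of ATF4, the genes for eIF2, its kinases and its exchange factor eIF2B had 1 of 11 lower and 0 higher (median 0.08), with 1 and 0 at an unadjusted p under 0.05, 0 and 0 in DESeq2 and 1 and 0 in limma-voom. Eif2s2, the beta subunit of eIF2, had 741 and 713 CPM with 1-nitropyrene and 761 and 786 CPM in controls (log2 fold change -0.09, SE 0.03, edgeR adjusted p = 0.0169). That call ended without control replicate 2 (adjusted p = 0.195) or 1-nitropyrene replicate 3 (adjusted p = 0.254), in DESeq2 (adjusted p = 0.0991) and with no filter on low counts. Eif2ak1, the heme-regulated kinase, and the eIF2B subunits Eif2b2 and Eif2b5 were not called, at log2 fold changes of -0.25 (SE 0.14), 0.21 (SE 0.13) and 0.28 (SE 0.17), and 487 bp of Eif2ak1 are shared with an opposite-strand gene. The kinase Eif2ak2, Eif2b1, and the phosphatase subunits Ppp1r15a and Ppp1r15b had 0 counts in all libraries.

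In the list drawn up for ATF4 degradation and cofactors, 2 of 8 fell and 2 rose (median -0.10). A place on this list is not evidence that a gene acts on ATF4. The endoplasmic reticulum chaperone Hspa5 had 823 and 816 CPM with 1-nitropyrene and 858 and 909 CPM in controls (log2 fold change -0.11, SE 0.03, edgeR adjusted p = 0.00176), a call lost without control replicate 2 (adjusted p = 0.174). Zfp91 had 256 and 268 CPM with 1-nitropyrene and 300.0 and 294 CPM in controls (log2 fold change -0.19, SE 0.04, edgeR adjusted p = 7.46e-05). Of its exon sequence, 847 bp is shared with Cntf, a gene on the same strand. The deacetylase Sirt1 rose to 24.0 and 24.1 CPM with 1-nitropyrene, against 14.8 and 16.2 CPM in controls, with 65 bp shared with an opposite-strand gene (log2 fold change 0.65, SE 0.14, edgeR adjusted p = 4.54e-05). The acetyltransferase Ep300, which stabilises ATF4, rose by 0.17 (SE 0.05, edgeR adjusted p = 0.00561), a call lost without control replicate 1 (adjusted p = 0.0808), control replicate 2 (0.0509) or 1-nitropyrene replicate 3 (0.177) and in DESeq2 (0.122).

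Ddit4 acts on mTORC1 through the TSC complex, and in the list of mTORC1 and its upstream regulators 0 of 14 tested fell and 2 rose (median -0.05), with 1 and 2 at an unadjusted p under 0.05, 0 and 1 in DESeq2 and 0 and 2 in limma-voom. Rraga, a GTPase that recruits mTORC1 to the lysosome in the presence of amino acids, rose to 1006 and 1020.0 CPM with 1-nitropyrene, against 738 and 729.5 CPM in controls (log2 fold change 0.46, SE 0.03, edgeR adjusted p = 8.12e-56). Mlst8, a subunit of mTORC1, had 67 and 56 counts with 1-nitropyrene and 31 and 30 in controls (log2 fold change 1.06, SE 0.28, edgeR adjusted p = 0.00108). The call of Mlst8 ended without control replicate 1 (adjusted p = 0.174), DESeq2 gave it no adjusted p, it fell below a filter of 10 CPM on the mean, and 997 bp of its exon sequence is shared with an opposite-strand gene. The kinase gene Mtor, with 13.3 and 12.3 CPM with 1-nitropyrene and 18.4 and 13.03 CPM in controls, and Rragc, a partner of Rraga that shares 264 bp with an opposite-strand gene, were not called (log2 fold changes -0.34, SE 0.16, and -0.08, SE 0.04).

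Within the lipoprotein receptor family, to which Vldlr belongs, 3 of 6 other genes fell and 1 rose (median -0.31). Lrp5, a Wnt co-receptor, fell to 86.2 and 82.9 CPM with 1-nitropyrene, against 121 and 123 CPM in controls (log2 fold change -0.53, SE 0.06, edgeR adjusted p = 9.04e-16). Lrp6, its close relative in the same Wnt receptor complex, rose to 76.5 and 74.8 CPM with 1-nitropyrene, against 54.6 and 53.4 CPM in controls (log2 fold change 0.48, SE 0.08, edgeR adjusted p = 7.82e-09). Lrp4 and Lrp10 fell by 0.47 (SE 0.12) and 0.49 (SE 0.12), with edgeR adjusted p of 0.000844 and 0.000205, and 475 bp of Lrp10 are shared with an opposite-strand gene. These 4 calls held in all 14 other settings tried. Lrp8, the receptor most like Vldlr, was not called, at 52.4 CPM with 1-nitropyrene and 50.8 CPM in controls on average (log2 fold change 0.05, SE 0.09). Lrp2, Lrp11 and Sorl1 had 0 counts in all libraries.

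The composite pattern TGATGNAA was more frequent before the starts of the other pathway genes than over all genes, in 18 of 156 windows (11.5%) against 3.45%, which is a description of lists chosen as ATF4 targets and neighbours. The 16 genes with it included Asns, Chac1, Gars, Tars, Slc7a11 and Herpud1. Of the 10 among them that were tested, 2 fell and 0 rose, Gars and Tars, and of the 64 tested genes without it, 10 fell and 5 rose. The difference between those shares was not tested.

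Over the 4 libraries, the profiles nearest to the median profile of the 8 tested listed genes were those of Dnmt3a, Ino80, Antxr2, Jade1 and Tmem150a. Likeness was the Euclidean distance between log2 CPM values centred on each gene's mean, over 4 libraries and 4298 protein-coding genes that averaged 10 CPM or more. The distances were 0.0337 for Dnmt3a and up to 0.0390 for Tmem150a. Dnmt3a, a DNA methyltransferase, had 34.4 ± 0.853 CPM with 1-nitropyrene and 46.7 ± 0.168 CPM in controls. Ino80, a chromatin remodelling ATPase, had 74.9 ± 1.72 CPM with 1-nitropyrene and 101 ± 1.01 CPM in controls.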

How the data were processed

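Polyadenylated RNA of 4 libraries was sequenced, and the authors deposited a table of unnormalized read counts per gene. Named in the submitters' processing notes, with no role or order, are HISAT2 2.1.0, featureCounts 1.6.3, DESeq2 and GRCm38 (mm10). No source used here gives the annotation, the use of strand or the handling of multi-mapped reads, and reads of overlapping or near-identical genes may be counted for the wrong one.

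Of 53465 gene identifiers 53360 matched GENCODE M21, which gave symbols, coordinates and exon lengths. Counts were fitted in edgeR 4.0.16 (R 4.3.3) with filterByExpr (7738 genes kept), TMM factors (0.989 to 1.01), treatment as the 1 term, a two-sided quasi-likelihood F test and Benjamini-Hochberg adjustment over the 7738 genes at 0.05. Dispersion was 0.000546 and the spread was shared by all genes (infinite prior degrees of freedom). SE is the size of the log2 fold change over the root of F. Counts of replicates differed by more than sampling noise (chi-square per degree of freedom 2.05 between treated, 1.62 between control libraries), and none were merged. The ratio interval is an exact binomial one (95%, scipy 1.17.1).

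Alternatives were RLE, upper quartile or no scaling, no filter, a mean of at least 10 CPM, DESeq2 1.42.0, limma-voom (limma 3.58.1), the older and the robust quasi-likelihood fits, rRNA genes left out, an adjusted p under 0.01, and each library left out, which takes the spread of the remaining pair for the single library left. The 10 genes and the lists were chosen with earlier results of these data known. Genes named are those 10 and their opposite-strand partners, up to 4 tested genes per list with the smallest p, up to 4 per list at 0 counts, and the 5 nearest profiles. Some genes that this rule names are not reported here. Asns and Lrp8 were added after their values were seen.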

Additional observations from a re-analysis of the deposited data

How the results depend on the processing

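The 8 listed genes above the filter kept a lower level with 1-nitropyrene in every alternative in which they were tested, except Slc7a5, whose log2 fold change ran from -0.91 to 0.37 with 1 library left out and was above 0 in 2 of its 13 settings. With each library left out in turn Ddit4 ranged from -1.43 to -1.24, Gpt2 from -1.09 to -0.93, Vldlr from -0.58 to -0.42, Cebpb from -0.47 to -0.35, Atf4 from -0.22 to -0.09, Atf5 from -0.19 to -0.09 and Shmt2 from -0.68 to -0.23, and the median of the listed genes tested from -0.50 to -0.42. Over all genes the reported test called 870 lower and 1024 higher. The balance turned with no scaling factors, to 1016 lower and 869 higher, and was near even with upper quartile factors, at 907 lower and 928 higher. DESeq2 called 319 lower and 517 higher, no filter on low counts gave 532 lower and 763 higher, and an adjusted p under 0.01 gave 568 lower and 753 higher. With 1 library left out the calls ranged from 511 to 647 lower and from 690 to 861 higher, fewest without control replicate 1. Of the other pathway genes, 15 lower and 8 higher became 9 and 5 in DESeq2, and 10 to 13 lower and 6 to 8 higher with 1 library left out. No paired analysis was possible because the groups share 1 replicate number only, and fewer than 2 pairs can be formed. Cebpg, Slc3a2 and Slc7a5 had too few counts for a difference to be detectable, and why their counts were low was not tested.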
